A study of Homo sapiens with 6 samples.

Results

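The genes described here are 9 of the plasminogen activator and serpin genes: the activators PLAU and PLAT, the receptor PLAUR, and the serpins SERPINE2, SERPINB2, SERPINB5, SERPINB8, SERPINB6 and SERPINH1. They were found by their gene names among the 58735 genes of the deposited expression table. The 9 were chosen by their values in the same comparison that is described, so those values are given as a description, with no test. RNA was sequenced from 3 libraries of human pancreatic cancer cells treated with GSK3326595, a small-molecule inhibitor of the arginine methyltransferase PRMT5, and from 3 libraries of the same cells with DMSO, the solvent control. All 6 libraries carry the cell line label BxPC-3, and the labels give neither dose nor duration; the design text speaks of a knockdown of PRMT5, while the labels name the inhibitor. The labels do not say whether each library had its own culture, so a p-value here covers the variation among these 6 samples alone, and that may be technical. The unit is FPKM (fragments per kilobase of gene, scaled to the mapped reads of the library).

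Plasmin is a broad protease that dissolves fibrin and helps cells to break down the matrix around them. It is cut from plasminogen by the urokinase-type activator (PLAU) or the tissue-type activator (PLAT), and the urokinase receptor (PLAUR) holds PLAU at the cell surface. Serpins are suicide inhibitors that trap a protease after it cuts their reactive loop: SERPINE2 and SERPINB2 are among those that block the activators. Other serpins have taken up different work, such as SERPINH1, a collagen chaperone of the endoplasmic reticulum. In pancreatic cancer the urokinase system is known for its link to invasion.

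The libraries held 14087260 to 15724750 reads each, recovered from the FPKM values. The second GSK3326595 library stood apart: its correlation with the other GSK3326595 libraries was 0.904 to 0.906, against 0.980 between those and 0.980 to 0.983 among DMSO libraries. Mitochondrial genes took 11.3% of its reads, against 5.84% to 6.03% in the other GSK3326595 libraries and 4.70% to 5.01% in DMSO libraries. Results that it moves are therefore also given without it. The data go against the cell line label in part: CDKN2A and SMAD4, genes that BxPC-3 is known to have lost, averaged 50.1 and 3.02 FPKM with GSK3326595 and 107 and 3.64 FPKM with DMSO, and 4 of 10 ductal markers (KRT19, CEACAM6, ESRP1 and PDX1) had 0 reads. From the same list, KRT7, KRT8, KRT18 and MUC1 averaged 163, 264, 255 and 21.8 FPKM with DMSO, and EPCAM and CDH1 0.211 and 0.118 FPKM. Since the data and the label differ in part, the cells are called cells labelled BxPC-3.

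Of the 9 genes, 6 passed the filter of at least 1 FPKM in at least 3 libraries that 13578 genes passed: SERPINE2, PLAU, PLAUR, PLAT, SERPINB6 and SERPINH1. SERPINE2 passed it through its DMSO libraries alone. In limma on log2(FPKM + 1), with Benjamini-Hochberg adjustment over all genes tested and a threshold of 0.05, 2 of the 6 were called, SERPINE2 and SERPINH1, both lower with GSK3326595. Among all genes tested 17.2% were called, 10.0% lower and 7.18% higher. Since this comparison had chosen the 9 genes, and SERPINE2 entered the fit through the group where it is high, these calls are no test of them and nothing is read from their count. PLAUR was called too without the second GSK3326595 library, which made 3 of the 6, while the share of all genes called was then 40.6%. The groups did not overlap in 4 of the 6 (SERPINE2, SERPINH1, PLAUR and PLAT, each lower with GSK3326595), against 45.9% of all genes tested. SERPINB8, SERPINB5 and SERPINB2 stayed below the filter.

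**Figure D1:**
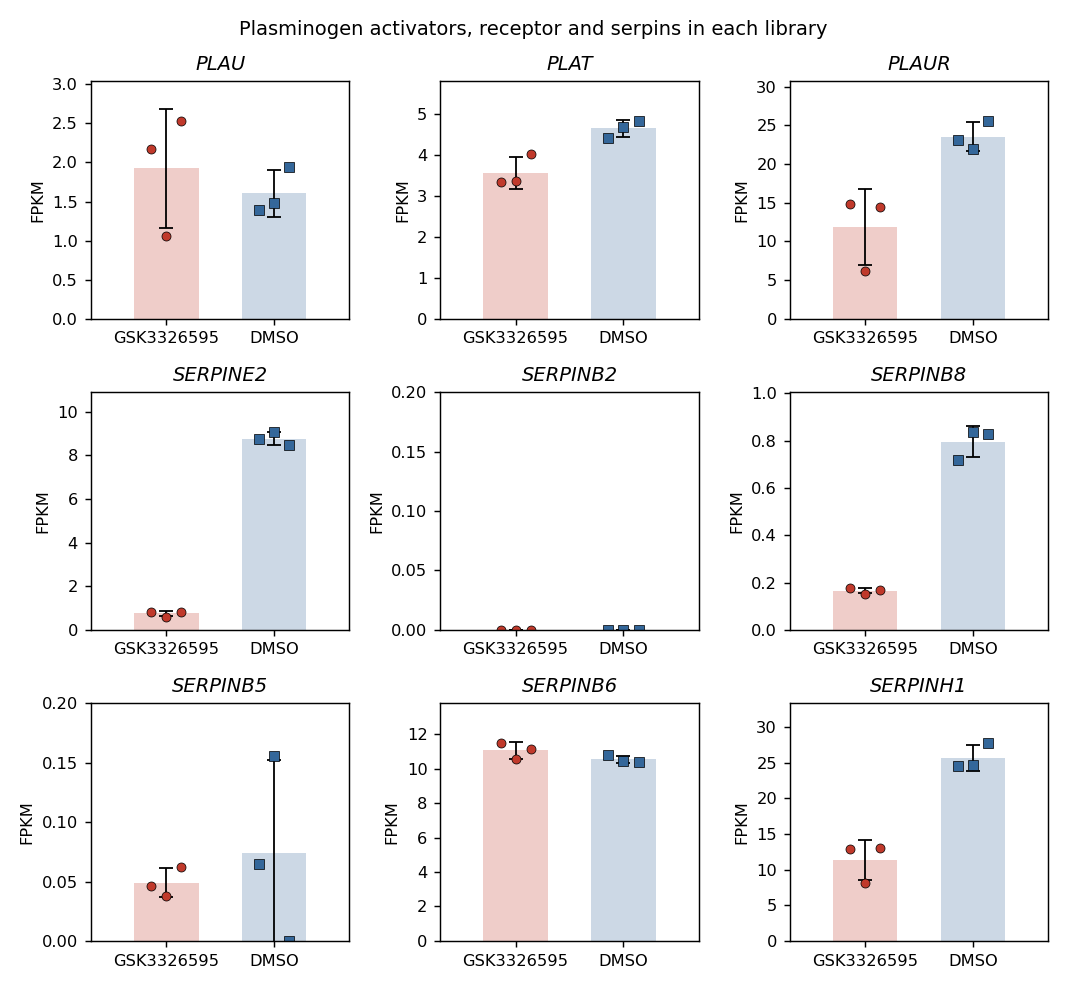
Expression of the 9 genes in FPKM, 1 panel a gene with its own vertical axis from 0, GSK3326595 left and DMSO right. Points are the 3 libraries of each group, bars the mean and lines the SD, which the axis cuts at 0 for SERPINB5 with DMSO; SERPINE2 sits between 0.605 and 0.837 FPKM with GSK3326595 and between 8.47 and 9.09 FPKM with DMSO, while the groups of PLAU overlap.

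For 4 of the genes that were lower with GSK3326595, the 250 bases before a start site are printed 5′ to 3′. The site is the one in RefSeq's promoter table (GRCh38.p14), which matched 8 of the 9 genes. It differs from the ends of the gene spans given below. The windows of SERPINE2 and PLAUR lie inside those spans, and the windows of SERPINB8 and SERPINH1 lie partly inside. The windows are chr2:224031479-224031728 on the minus strand for SERPINE2, chr19:43670170-43670419 on the minus strand for PLAUR, chr18:63969831-63970080 on the plus strand for SERPINB8 and chr11:75562003-75562252 on the plus strand for SERPINH1. Capitals mark matches, on either strand, to the letters of the E-box (CACGTG), the AP-1 site (TGANTCA), the TATA box (TATAAA), the NF-kB site (by its name) and the heat shock half-sites (GAANNTTC and TTCNNGAA, which overlap in SERPINH1).
SERPINE2: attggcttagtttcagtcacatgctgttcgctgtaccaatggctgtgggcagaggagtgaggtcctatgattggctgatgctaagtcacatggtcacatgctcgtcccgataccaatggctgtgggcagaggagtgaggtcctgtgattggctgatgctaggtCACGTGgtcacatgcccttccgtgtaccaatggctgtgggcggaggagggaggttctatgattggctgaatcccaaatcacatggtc
PLAUR: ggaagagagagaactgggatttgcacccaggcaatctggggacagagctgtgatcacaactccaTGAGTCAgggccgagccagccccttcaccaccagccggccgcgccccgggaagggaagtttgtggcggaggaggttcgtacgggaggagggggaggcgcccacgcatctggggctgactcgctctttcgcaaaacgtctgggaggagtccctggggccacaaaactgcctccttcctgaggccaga
SERPINB8: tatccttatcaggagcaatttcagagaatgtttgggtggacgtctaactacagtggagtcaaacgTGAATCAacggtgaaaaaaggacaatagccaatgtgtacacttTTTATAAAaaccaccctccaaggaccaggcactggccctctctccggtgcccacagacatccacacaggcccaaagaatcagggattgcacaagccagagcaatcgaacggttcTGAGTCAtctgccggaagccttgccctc
SERPINH1: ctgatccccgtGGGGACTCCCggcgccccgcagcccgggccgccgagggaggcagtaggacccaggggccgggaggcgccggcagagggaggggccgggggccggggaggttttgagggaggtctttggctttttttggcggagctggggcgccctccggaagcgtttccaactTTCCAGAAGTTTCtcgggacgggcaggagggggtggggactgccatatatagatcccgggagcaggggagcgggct

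Over windows that also took in the 50 bases after the start, AP-1 letters stood in 4 of the 8 genes (PLAUR, SERPINB2, SERPINB5 and SERPINB8) and in 7.71% of all 35116 promoters. SERPINB8 held them at both -185 and -28, counted from the start base as 0, and PLAUR at -186. SERPINH1 had GAANNTTC at -71 and TTCNNGAA at -76, letters found in 6.77% and 7.74% of promoters, and SERPINB6 had TTCNNGAA too, at -248. SP1 letters (GGGCGG), not set in capitals, stood in SERPINE2 at -50 and also in SERPINB5 and SERPINB6, and in 45.0% of promoters. TATA letters stood in SERPINB8 at -142 and -140 and in SERPINB2 at -30, and in 11.5% of promoters. NF-kB letters stood in SERPINH1 at -239, and in 5.91% of promoters. The E-box letters of SERPINE2, at -87, occurred in 7.26% of promoters. Its window repeats itself: the 17 bases taccaatggctgtgggc occur in 3 copies, and 1.96% of promoters hold any string of that length in 3 copies. None of these letters, nor those of CRE (TGACGTCA), TEAD (GGAATG) or SP1, was found in the window of PLAU. A match is a description of letters, not of a bound site.

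Among the activators, PLAU (ENSG00000122861, chromosome 10, 73909177 to 73917497, plus strand, hg38) encodes urokinase. Its level was 2.17, 1.06 and 2.54 FPKM with GSK3326595, against 1.39, 1.48 and 1.95 FPKM with DMSO. The second GSK3326595 library lay below every DMSO library and the other two above all of them, so the groups overlapped. The mean was 1.92 ± 0.767 FPKM with GSK3326595 and 1.60 ± 0.299 FPKM with DMSO (SD, n = 3 each). The log2 fold change was 0.14 (SE 0.23). Without the second GSK3326595 library it was 0.37, and without the third GSK3326595 library -0.02. Another gene, C10orf55, lies over PLAU on the opposite strand at 0.0297 to 0.390 FPKM, and the sources used here do not state if counting used the strand.

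PLAT (ENSG00000104368, chromosome 8, 42175233 to 42207724, minus strand) encodes the tissue-type activator, best known for dissolving clots. It stood at 3.33, 3.35 and 4.02 FPKM with GSK3326595, against 4.42, 4.68 and 4.84 FPKM with DMSO. Each GSK3326595 library lay below each DMSO library, by a small margin. The mean was 3.57 ± 0.394 FPKM with GSK3326595 and 4.65 ± 0.209 FPKM with DMSO (SD, n = 3 each), 0.767 times as much. Its log2 fold change of -0.31 (SE 0.11) was called neither with all libraries nor without any of them. The summed level of both activators was 5.50, 4.42 and 6.56 FPKM with GSK3326595 and 5.81, 6.17 and 6.78 FPKM with DMSO, ranges that overlap. PLAT exceeded PLAU 1.53, 3.15 and 1.59 times with GSK3326595 and 3.19, 3.16 and 2.49 times with DMSO. The second GSK3326595 library, where PLAU was lowest, is the one that resembled the DMSO libraries in this ratio.

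PLAUR (ENSG00000011422, chromosome 19, 43646095 to 43670547, minus strand) encodes the urokinase receptor, a protein tethered to the membrane by a lipid anchor. It had 14.9, 6.19 and 14.4 FPKM with GSK3326595, against 23.1, 21.9 and 25.6 FPKM with DMSO. The groups did not overlap, and the second GSK3326595 library was far below its companions. The mean was 11.8 ± 4.90 FPKM with GSK3326595 and 23.5 ± 1.90 FPKM with DMSO (SD, n = 3 each), a ratio of 0.503. The log2 fold change of -1.02 (SE 0.31) was not called with all 6 libraries. Without the second GSK3326595 library the ratio was 0.623 and the log2 fold change -0.65, which was called. The receptor exceeded PLAU 6.86, 5.82 and 5.69 times with GSK3326595 and 16.7, 14.8 and 13.2 times with DMSO, without overlap. Both genes were chosen by this comparison, so the ratio is a description.

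Among the inhibitors, SERPINE2 (ENSG00000135919, chromosome 2, 223975112 to 224039319, minus strand) encodes protease nexin-1, a cell-surface inhibitor of thrombin, urokinase and the tissue-type activator. It had 0.837, 0.605 and 0.807 FPKM with GSK3326595, against 8.76, 9.09 and 8.47 FPKM with DMSO. Each GSK3326595 library lay far below each DMSO library. These levels rest on 122, 72 and 117 reads with GSK3326595 and 1218, 1183 and 1115 reads with DMSO. The mean was 0.750 ± 0.126 FPKM with GSK3326595 and 8.77 ± 0.308 FPKM with DMSO (SD, n = 3 each), 11.7-fold lower. Its DMSO level lay above that of 63.0% of the genes tested, and its GSK3326595 level above that of 2.09% of them. The filter of 1 FPKM in at least 3 libraries, which SERPINE2 passed through DMSO alone, leaves few genes that could rank below its GSK3326595 level. Nothing is therefore read from the second rank. The log2 fold change of FPKM + 1 was -2.48 (SE 0.11), and -2.42 without the second GSK3326595 library. On that scale the change of a low gene is understated, and on the recovered reads limma-voom gave -3.54 (SE 0.17).

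SERPINE2 can be set against the activators within each library. Its FPKM over the summed FPKM of PLAU and PLAT was 0.152, 0.137 and 0.123 with GSK3326595 and 1.51, 1.47 and 1.25 with DMSO. The groups did not overlap in this ratio, whose denominator overlapped between them. The ratio repeats the lower level of SERPINE2, a gene chosen by this comparison, so it is a description and adds no support.

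**Figure D2:**
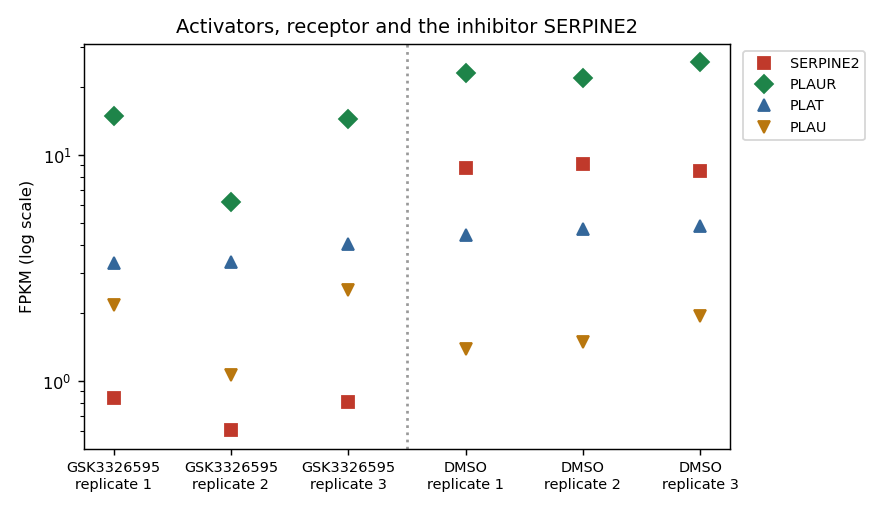
FPKM, on a log axis, of the activators PLAU and PLAT, the receptor PLAUR and the inhibitor SERPINE2, 1 column a library with the 3 GSK3326595 libraries left of the 3 DMSO libraries and 1 symbol a gene. SERPINE2 lies below PLAU in the GSK3326595 libraries and above PLAT in the DMSO libraries, and PLAUR is lowest in the second GSK3326595 library at 6.19 FPKM.

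The clade B serpins mostly stay inside cells. SERPINB8 (ENSG00000166401, chromosome 18, 63969925 to 64019779, plus strand), an intracellular inhibitor of furin-like proteases, had 0.177, 0.153 and 0.167 FPKM with GSK3326595, against 0.719, 0.838 and 0.829 FPKM with DMSO. The groups did not overlap, at 17, 12 and 16 reads with GSK3326595 and 66, 72 and 72 reads with DMSO. The mean was 0.166 ± 0.0121 FPKM with GSK3326595 and 0.795 ± 0.0661 FPKM with DMSO (SD, n = 3 each), 4.80-fold lower. It lay below the filter, and a limma-voom fit on genes with at least 60 reads in all, added after seeing the data, put its log2 fold change at -2.22. It entered that fit through its DMSO reads too, so the value is a description. Of its possible 50-base reads 5.42% also match HMSD, which overlaps it and had 0 reads.

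SERPINB5 (ENSG00000206075, chromosome 18, 63476761 to 63505085, plus strand) encodes maspin, a serpin that inhibits no known protease and is a marker of some epithelia. It had only 3, 2 and 4 reads with GSK3326595 and 4, 9 and 0 reads with DMSO. The counts overlap, and a difference was not detectable at this depth. SERPINB2 (ENSG00000197632, chromosome 18, 63871692 to 63903890, plus strand), an inhibitor of urokinase, had 0 reads in all 6 libraries, which allows up to 0.0120 FPKM, the level of 3 reads over the 6 libraries. That limit covers counting error only. Of its possible 50-base reads 18.2% are shared with the overlapping SERPINB10, also at 0 reads.

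These 3 genes stand in a cluster of 11 genes on chromosome 18, of which 5 had 0 reads and none passed the filter. SERPINB3 and SERPINB4, near-identical copies between which reads may be split wrongly, had 1 read each with GSK3326595 and 13 and 33 reads with DMSO. SERPINB7 had 1 read with GSK3326595 and 6 reads with DMSO. SERPINB11 had 1 read with GSK3326595 and 0 reads with DMSO. SERPINB8 carried the most reads of the cluster, 45 with GSK3326595 and 210 with DMSO.

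SERPINB6 (ENSG00000124570, chromosome 6, 2948159 to 2972165, minus strand), which inhibits serine proteases such as cathepsin G in the cytosol, was the steadiest of the 9. It had 11.5, 10.6 and 11.1 FPKM with GSK3326595, against 10.8, 10.5 and 10.4 FPKM with DMSO. The groups overlapped, with a mean of 11.1 ± 0.471 FPKM with GSK3326595 and 10.6 ± 0.201 FPKM with DMSO (SD, n = 3 each). The log2 fold change was 0.06 (SE 0.10). Its neighbour SERPINB1, an inhibitor of neutrophil proteases, averaged 26.9 ± 2.51 FPKM with GSK3326595 and 35.1 ± 2.72 FPKM with DMSO (SD, n = 3 each), and was not called (adjusted p = 0.0837 in limma). SERPINB9P1, listed as a long noncoding RNA between them, rose, although its name marks it as a copy of SERPINB9 (1 read in all), so that reads may be shared. It had 5.64, 5.99 and 5.67 FPKM with GSK3326595 and 3.07, 1.87 and 2.41 FPKM with DMSO (log2 fold change 0.99, SE 0.15, adjusted p = 0.0103 in limma), a call lost without the third DMSO library (0.99).

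SERPINH1 (ENSG00000149257, chromosome 11, 75562056 to 75572783, plus strand) encodes HSP47, which binds procollagen in the endoplasmic reticulum and inhibits no protease. It had 12.9, 8.11 and 13.1 FPKM with GSK3326595, against 24.6, 24.6 and 27.8 FPKM with DMSO. All GSK3326595 libraries lay below all DMSO libraries. The mean was 11.4 ± 2.83 FPKM with GSK3326595 and 25.7 ± 1.85 FPKM with DMSO (SD, n = 3 each), a ratio of 0.443. The log2 fold change was -1.13 (SE 0.19), and -0.93 without the second GSK3326595 library. The call was lost without each DMSO library in turn, at -1.16 without replicate 1, -1.16 without replicate 2 and -1.08 without replicate 3.

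Across the 9 genes the order of levels differed between the groups. With GSK3326595, PLAUR, SERPINH1 and SERPINB6 overlapped at the top, followed by PLAT, PLAU and SERPINE2, and then SERPINB8 and SERPINB5. With DMSO, SERPINH1 and PLAUR overlapped at the top, followed by SERPINB6, SERPINE2, PLAT, PLAU, SERPINB8 and SERPINB5. SERPINE2 thus stood below PLAU in every GSK3326595 library and above PLAT in every DMSO library. These are levels per length of gene.

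**Figure D3:**
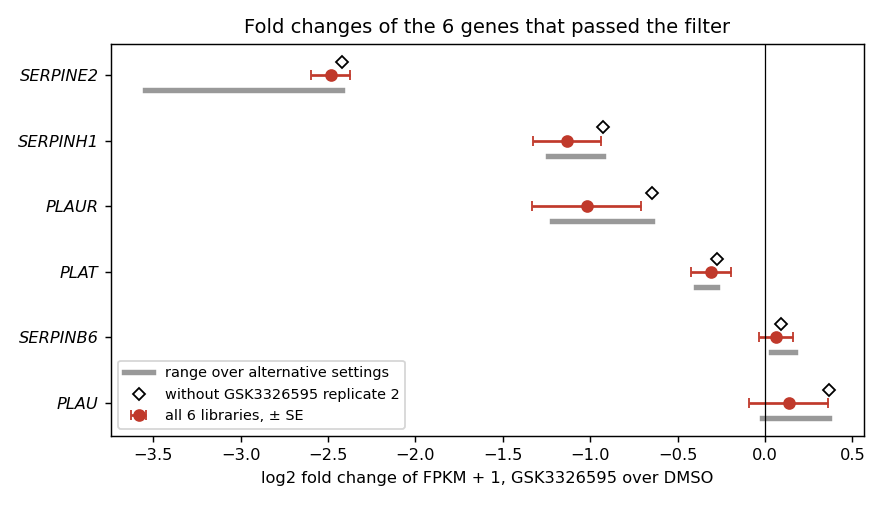
Log2 fold change of FPKM + 1 (GSK3326595 over DMSO) of the 6 genes that passed the filter, with all libraries (filled, bars are standard errors from limma), without the second GSK3326595 library (open) and as the range over the alternative settings (grey). SERPINE2 lies at -2.48 and -2.42, whereas PLAUR moves to -0.65 and PLAU to 0.37 without that library.

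The genes differed in how far they followed the library that stood apart. The second GSK3326595 library held 0.422 times the mean of replicates 1 and 3 for PLAUR, 0.452 times for PLAU and 0.623 times for SERPINH1. It held 0.736 times that mean for SERPINE2, 0.888 for SERPINB8, 0.912 for PLAT and 0.934 for SERPINB6. Over all genes tested the median of this quotient was 0.967, with quartiles of 0.654 and 1.35. PLAUR, PLAU and SERPINH1 are thus below the lower quartile. What set that library apart, and its part in their values, was not tested.

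The genes with values most like those of SERPINE2 over the 6 libraries, by Euclidean distance between log2(FPKM + 1) values centred on their DMSO means, were TFRC (0.171), PTGES (0.245) and MYEOV (0.246). For PLAU they were DGKA (0.0856), DLK2 (0.114) and ATG4B (0.122). For PLAUR they were FXYD5 (0.0917), CHMP4B (0.0973) and PSRC1 (0.106).

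Of 29 other genes of the plasminogen system, 16 passed the filter, and in limma 4 rose with GSK3326595, 1 fell and 11 did not pass the test. Their median log2 fold change was -0.03, against -0.05 over all genes tested, of which 7.18% were called higher and 10.0% lower. Plasminogen itself (PLG) had 0 reads in every library. PZP, a broad protease trap of the macroglobulin family, rose: it had 8.73, 10.2 and 8.96 FPKM with GSK3326595 and 1.15, 1.38 and 1.16 FPKM with DMSO (log2 fold change 2.20, SE 0.11, adjusted p = 0.000662 in limma). TFPI2, a secreted inhibitor of plasmin and trypsin, fell: it had 1.71, 1.25 and 1.28 FPKM with GSK3326595 and 9.77, 11.1 and 8.76 FPKM with DMSO (log2 fold change -2.17, SE 0.14, adjusted p = 0.000981 in limma). Both calls held without each library in turn.

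Among the receptors LRP1 and PLGRKT were called, while the endocytic receptors VLDLR, IGF2R and MRC2 were not, with adjusted p of 0.0905, 0.471 and 0.457 in limma. LRP1, the endocytic receptor that clears activators bound to serpins, rose: it had 46.7, 81.4 and 61.0 FPKM with GSK3326595 and 21.2, 20.6 and 26.8 FPKM with DMSO (log2 fold change 1.40, SE 0.22, adjusted p = 0.0115 in limma). PLGRKT, a plasminogen receptor of the cell surface, rose: it had 3.43, 3.25 and 3.74 FPKM with GSK3326595 and 1.88, 1.42 and 1.40 FPKM with DMSO (log2 fold change 0.80, SE 0.13, adjusted p = 0.0115 in limma). The call of LRP1 was lost without the first (1.35) and the second (1.33) DMSO library, and that of PLGRKT without the second (0.76) and the third (0.76). SERPINI1, neuroserpin, an inhibitor of the tissue-type activator in brain, rose: it had 2.37, 1.85 and 1.93 FPKM with GSK3326595 and 1.16, 1.10 and 0.726 FPKM with DMSO (log2 fold change 0.61, SE 0.15, adjusted p = 0.0366 in limma). That call held only when the second GSK3326595 library was the one left out, with adjusted p up to 0.121 without another.

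The annexin pair that docks plasminogen at the surface was not called. ANXA2 had 53.5, 37.8 and 51.5 FPKM with GSK3326595 and 54.4, 55.4 and 56.8 FPKM with DMSO (log2 fold change -0.23, SE 0.16, adjusted p = 0.333 in limma). S100A10 had 185.4, 63.2 and 156.8 FPKM with GSK3326595 and 123.2, 123.6 and 104.9 FPKM with DMSO (log2 fold change 0.07, SE 0.39, adjusted p = 0.917 in limma). The second GSK3326595 library was the lowest of the 6 for both. Without it S100A10 was called higher (0.54), while its value was -0.23 without GSK3326595 replicate 1, -0.11 without GSK3326595 replicate 3 and -0.01 without DMSO replicate 3. SERPINF2, the plasmin inhibitor of plasma, stayed below the filter, with 0.182, 0.286 and 0.209 FPKM with GSK3326595 and 0.327, 0.116 and 0.230 FPKM with DMSO. Without the second GSK3326595 library 10 of the 16 were called, 6 higher and 4 lower, against 40.6% of all genes tested.

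Beyond the serpins of the 9 genes the table holds 36 others, of which 17 had 0 reads and 5 passed the filter. Of these 5, 2 were called, both higher (SERPINB9P1 and SERPINI1), against 17.2% of all genes tested. The median log2 fold change of the 5 was 0.33, against -0.05 over all genes tested. Without the second GSK3326595 library 4 of the 5 were called, against 40.6% of all genes tested. Without the third DMSO library 0 of the 5 were called, against 579 of 13578 genes tested. In that limma fit 3 of the 5 had an unadjusted p under 0.05, against 3458 of the 13578 genes.

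As partners of SERPINH1, 20 genes of collagen folding and modification were listed and 19 passed the filter. In limma 1 of them rose, 4 fell and 14 did not pass the test, with a median log2 fold change of 0.06. Of all genes tested 7.18% were called higher and 10.0% lower. P3H2, a prolyl 3-hydroxylase of collagen, fell: it had 14.1, 15.0 and 13.2 FPKM with GSK3326595 and 32.6, 33.2 and 32.8 FPKM with DMSO (log2 fold change -1.16, SE 0.10, adjusted p = 0.00261 in limma). Its call held without each library in turn. PLOD2, a lysyl hydroxylase of collagen, rose: it had 21.3, 31.0 and 19.8 FPKM with GSK3326595 and 13.2, 13.3 and 11.4 FPKM with DMSO (log2 fold change 0.85, SE 0.19, adjusted p = 0.0273 in limma). PPIB (-0.53), PLOD3 (-0.74) and COLGALT1 (-0.50), a prolyl isomerase, a lysyl hydroxylase and a collagen galactosyltransferase, fell with adjusted p of 0.0292, 0.0325 and 0.0495 in limma.

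Without single libraries most of these collagen calls were lost while the fold changes stayed near their values. The calls of PLOD2, PLOD3, PPIB and COLGALT1 were lost without the first GSK3326595 library or any DMSO library, and those of PPIB and COLGALT1 also without the third GSK3326595 library. Over all single libraries left out, the log2 fold change lay between 0.66 and 0.97 for PLOD2, -0.86 and -0.59 for PLOD3, -0.62 and -0.47 for PPIB and -0.58 and -0.43 for COLGALT1. Of the 19 genes 11 were called without the second GSK3326595 library, 7 higher and 4 lower, against 40.6% of all genes tested. After quantile normalization the split was 4 higher and 1 lower.

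Matrix metalloproteinases are proteases, some of which plasmin can activate, and the TIMPs are their inhibitors. Of 21 genes of both kinds, 6 passed the filter, and their median log2 fold change was -0.53. MMP15, a membrane-bound metalloproteinase, was the 1 called of the 6, against 17.2% of all genes tested. It fell, with 11.3, 9.38 and 11.0 FPKM with GSK3326595 and 18.8, 18.6 and 22.0 FPKM with DMSO (log2 fold change -0.85, SE 0.13, adjusted p = 0.00964 in limma). That call was lost without each DMSO library, at -0.88, -0.89 and -0.77 without replicates 1, 2 and 3. TIMP1, an inhibitor of metalloproteinases, had 64.6, 33.4 and 66.1 FPKM with GSK3326595 and 96.5, 96.2 and 109.1 FPKM with DMSO (adjusted p = 0.0617 in limma). Of the 6 genes 5 were called without the second GSK3326595 library, 1 higher and 4 lower, against 40.6% of all genes tested. Below the filter the groups did not overlap in MMP11, MMP28, MMP13 and MMP19. MMP11, MMP28 and MMP13 had 125, 120 and 24 reads with GSK3326595 and 19, 33 and 0 reads with DMSO. MMP19 had 8 reads with GSK3326595 and 34 reads with DMSO.

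**Figure D4:**
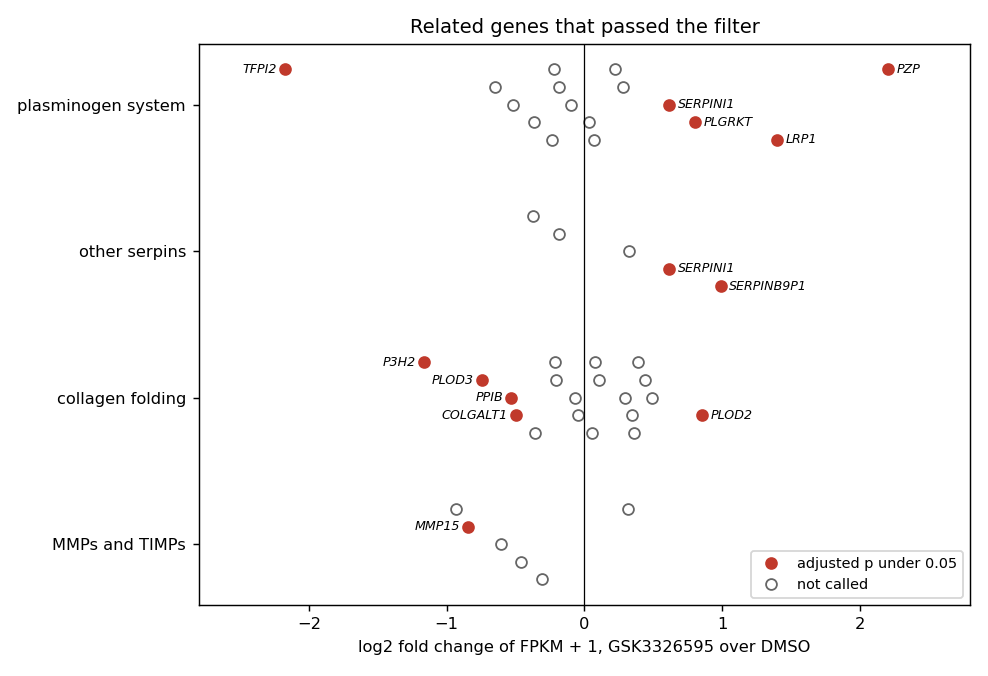
Log2 fold change of FPKM + 1 (GSK3326595 over DMSO) of the genes of 4 lists that passed the filter, 1 row a list and the vertical place within a row without meaning. Filled points were called in limma at an adjusted p under 0.05 and are named; PZP (2.20) and TFPI2 (-2.17) lie farthest out.

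Markers of other cell types were read in the same libraries. The summed FPKM of 7 mesenchymal markers, of which COL1A2 and LUM had 0 reads, was 81.5 to 103.4 with GSK3326595 and 63.4 to 71.2 with DMSO. Without VIM it was 10.2 to 15.5 FPKM with GSK3326595 and 5.12 to 5.72 FPKM with DMSO. The 3 immune markers summed to at most 0.0974 FPKM with GSK3326595 and 0.309 FPKM with DMSO, with CD3E at 0 reads, and 3 endothelial markers to 0.2265 to 0.823 FPKM with GSK3326595 and 1.09 to 1.46 FPKM with DMSO. The 10 ductal markers summed to 787.5 to 1040.0 FPKM with GSK3326595 and 672.3 to 750.8 FPKM with DMSO. The ductal, mesenchymal and endothelial sums did not overlap between the groups, and their part in the results was not tested. Of all genes tested 45.9% did not overlap either. Genes of a list did not all move together. KRT8 and KRT18 averaged 361 and 364 FPKM with GSK3326595 and 264 and 255 FPKM with DMSO, but KRT7 103 and 163 FPKM. CDH5 averaged 0.339 FPKM with GSK3326595 and 1.24 FPKM with DMSO, while VWF and PECAM1 were higher on average with GSK3326595. In bulk RNA, fewer cells of a type and less RNA per cell cannot be told apart.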

How the data were processed

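Per the labels' protocols, the kit for the total RNA libraries was directional. The authors deposited 1 table of FPKM values for 58735 genes in 6 libraries, with each gene's name, position and length, on hg38 per the submitters' processing notes; the sources used here name no aligner, counter or strand setting. The start and end of 58735 of 58735 genes equal those of GENCODE 29. Multiplying FPKM by gene length gave whole reads (100% of values within 0.01), and these gave the depth, 14087260 to 15724750 reads a library.

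From the deposited FPKM, log2(FPKM + 1) was fitted with limma 3.58.1 (R 4.3.3, moderated with a trend), GSK3326595 against DMSO. Genes had at least 1 FPKM in at least 3 libraries, with Benjamini-Hochberg adjustment and a threshold of 0.05. The fit was tested on simulated counts in which no library stood apart, so that check does not cover a library like the second GSK3326595 library. Tables, sequences and figures were made with Python 3.11.15, pandas 2.3.3 and matplotlib 3.10.9. The members and lists were chosen with earlier results of these data known. From each list up to 5 called genes with the smallest adjusted p were named, and SERPINF2, PLG, ANXA2 and S100A10 always, while another gene of the rule is not reported here; TIMP1, SERPINB1, VLDLR, IGF2R, MRC2 and the low serpins of the clusters were named after their values were seen. Alternatives were other pseudocounts (0.1 and 0.5), no filter, a filter at 5 FPKM, TPM scaling, quantile normalization, no trend, limma-voom on recovered reads, a replicate block and leaving out each library.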

Additional observations from a re-analysis of the deposited data

How the results depend on the processing

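Over 20 genes, 316 log2 fold changes were computed under the alternatives: 262 kept their direction and their side of the threshold, 47 were no longer called, 3 were newly called and 4 turned sign. Without each library in turn, PLAU ranged from -0.0199 (without GSK3326595 replicate 3) to 0.37 and S100A10 from -0.23 to 0.54, with -0.23, -0.11 and -0.01 without GSK3326595 replicate 1, GSK3326595 replicate 3 and DMSO replicate 3. The log2 fold change of SERPINE2, which is a description, lay between -3.54 and -2.42 under the alternatives.

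All counts of calls depended on single libraries. The number of genes called, 2339 with all libraries, was 1533 with no filter and 1505 with the filter at 5 FPKM, and 478 to 5513 without each library in turn, the highest without the second GSK3326595 library and the lowest without the first DMSO library. At 5 FPKM 29.6% of the calls were higher, against 41.7% in the fit as reported and 49.6% after quantile normalization. Of the 9 genes, 7 entered limma-voom on genes with at least 60 reads, an alternative chosen after seeing the data. There 4 of the 7 were called, against 3215 of 15507 genes in that fit. Without each library in turn, 1 to 3 of the 6 in the fit were called, against 478 to 5513 of 13578 genes. These counts are no test of the 9 genes. The other plasminogen genes gave 3 calls with the filter at 5 FPKM and 2 to 10 without each library, and the other serpins 1 with that filter, 1 with TPM scaling and 0 to 4 without each library. The collagen genes gave 2 calls with no filter and 1 to 11 without each library. The metalloproteinase and TIMP genes gave 2 with no filter, 2 after quantile normalization, 2 with limma-voom, 4 with limma-voom on genes with at least 60 reads and 0 to 5 without each library. The 0 arose in limma without any 1 DMSO library, when 2 to 3 of the 6 genes had an unadjusted p under 0.05; the cause was not tested.

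With the replicate number as a replicate block, 1478 genes were called, with 4 calls among the other plasminogen genes, 1 among the other serpins and 3 among the collagen genes. The numbers were not taken to pair the libraries: deviations of same-numbered libraries correlated at -0.0179, 0.157 and 0.248, not all above 0.1. GSK3326595 replicates 2 and 3 correlated best with their own number, and GSK3326595 replicate 1 with DMSO replicate 3 (0.0920), which is a hint from the data, not the design.

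With 3 libraries a group and unknown culture origin, the precision rests on 6 libraries. Below about 1 FPKM the counts are small: SERPINB5 had 22 reads in all, and SERPINB8 255.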
